A study of Mus musculus with 2 samples.

Results

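The genes described here are those of glycolysis and of the response to low oxygen: the enzymes from hexokinase to lactate dehydrogenase, the carriers of glucose and lactate, the hypoxia-inducible factors (HIF) with the proteins that sense oxygen, and genes that HIF is known to induce. A list of 35 genes was set against the platform annotation, and a gene was a member when at least 1 probe set named it and no other gene. This gave 33 members of 18194 genes on the array that were named in that way. Gpi1 and Eno1 were not analysed here. Gapdh was named alone only by control probe sets and is described apart, which left 32 genes.

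The samples were interdigital tissue, dissected from the interdigits labelled ID2 and ID3 of mouse hind limbs at embryonic stage E13.5. The wild type was B6, the usual short name of C57BL/6, and the mutant was homozygous for Hammer toe, a mouse mutation that leaves the digits webbed. The labels name no strain for the mutant and no treatment for either genotype, so strain and Hammer toe genotype cannot be told apart. The study design gives 3 sets of 5 littermates, 15 embryos per genotype, but the deposited values are 1 array per genotype, which leaves every value without an error between embryos and allows no test. Whether an array held RNA pooled from all the embryos, from 1 set or from 1 embryo is not given in the sources used here, so each ratio compares these arrays only.

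Glycolysis splits glucose into pyruvate, and cells that turn pyruvate into lactate can make ATP without oxygen. Many embryonic tissues, the limb bud among them, take up glucose and release lactate even where oxygen is present. HIF is a pair of an oxygen-regulated alpha subunit and the stable partner ARNT; prolyl hydroxylases mark the alpha subunit in the presence of oxygen, and VHL then has it destroyed. When oxygen is low the pair binds a short DNA motif near glycolytic and other genes and raises their transcription.

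Each value is a MAS5 intensity, the signal that Affymetrix software computes from the probes of a probe set, on a linear scale. Intensities of different probe sets have no common scale, so values were compared between the arrays and not between genes. A sum over a list weighs its brightest probe sets most. A floor was set at the median of all values, 78.1, below which intensities were taken as too low to order. A gene counted as measured if at least 1 array read above the floor, which 30 of the 32 genes did, of 11621 genes in all. With 1 array below it, a ratio gives only a bound.

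Glycolytic and hypoxia response genes lay close together on both genotypes' arrays. Of the 30 measured members, 11 were higher in Hammer toe and 19 lower, and the median of their log2 ratios (Hammer toe over wild type throughout) was -0.05, against 0.01 over all genes measured, of which 51.7% were higher. At 1.5-fold or more, 2 members were higher, Aldoc and Egln3, and 0 were lower. Over all genes measured, 2.17% were higher and 1.39% lower by that size. At 2-fold or more, Aldoc alone was higher, where 0.258% of all genes were higher and 0.112% lower. The 13 measured enzymes had a median log2 ratio of -0.10, and 10 of them were lower, where 48.3% of all genes were lower by any size. The 5 measured hypoxia targets had a median of -0.02, which falls on the bound of Car9, and 4 of them were lower; without Car9 their median was -0.04. In whole tissue, fewer cells of a type and less RNA per cell cannot be told apart.

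**Figure D1:**
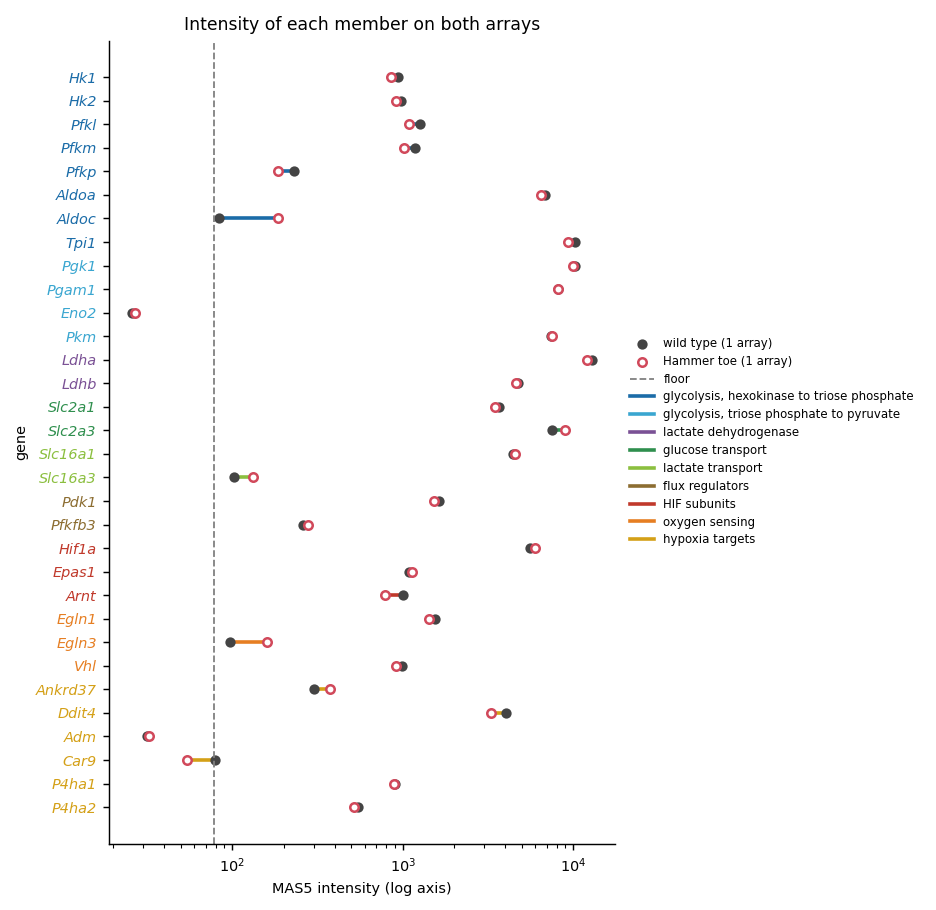
MAS5 intensity (log axis) of 32 genes on the wild-type array (filled points) and the Hammer toe array (open points), 1 array each, with the bar between them coloured by role and the floor of 78.1 dashed. For most genes the points nearly coincide; the widest gaps between points above the floor are those of Aldoc (83.5 and 185) and Egln3 (97.2 and 160), and Eno2 and Adm are under the floor on both arrays.

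Measures of technical spread stand beside these ratios. The 18 spiked hybridisation controls had log2 ratios with an SD of 0.06, and for 5134 genes with several probe sets the SD between those of a gene was 0.21. Both leave out the variation between embryos. Bright genes lay closer together than dim ones. Where the brighter array read above 1000, 95% of genes were within 1.24-fold. The limits were 1.45-fold between 200 and 1000 and 1.60-fold up to 200. Low values were raised to the floor, which caps the ratios of dim genes. This narrows the range up to 200 and lowers the shares counted within that class. Beyond the range for their own intensity were 3 members, Aldoc, Egln3 and Arnt, of 30, where 5.01% of all genes were. Arnt read 1008 on its brighter array, just above the class edge of 1000. Its 1.27-fold was within the 1.45-fold limit of the class below. The Gapdh control probe sets at the ends of the transcript gave a ratio of 3' to 5' signal of 0.79 in wild type against 0.77 in Hammer toe.

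Promoters of 5 members are shown to set the HIF motif beside the expression values. Ankrd37 and Ddit4 are hypoxia targets that went opposite ways, each within the range that held 95% of genes of its intensity. Egln3 and Aldoc were the members furthest above wild type, and Ldha is a textbook HIF target that stayed close to wild type. Each run is the 250 bases before a transcription start site, read 5' to 3' on the gene's strand, from RefSeq on GRCm38.p6. Capitals mark the HIF core motif, ACGTG or GCGTG on either strand, so that it reads CACGT or CACGC where it lies on the other strand.
Ankrd37, chr8:45999851-46000100, minus strand: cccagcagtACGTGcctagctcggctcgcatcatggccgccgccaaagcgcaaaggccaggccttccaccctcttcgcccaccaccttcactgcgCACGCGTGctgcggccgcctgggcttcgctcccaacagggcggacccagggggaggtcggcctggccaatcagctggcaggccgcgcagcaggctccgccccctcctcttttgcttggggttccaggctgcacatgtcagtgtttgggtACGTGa
Ddit4, chr10:59951771-59952020, minus strand: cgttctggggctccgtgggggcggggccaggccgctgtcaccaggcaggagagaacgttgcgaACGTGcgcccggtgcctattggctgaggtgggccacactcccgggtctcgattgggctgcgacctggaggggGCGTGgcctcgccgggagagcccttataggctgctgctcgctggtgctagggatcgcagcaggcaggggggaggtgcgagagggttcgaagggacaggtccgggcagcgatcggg
Egln3, chr12:54203875-54204124, minus strand: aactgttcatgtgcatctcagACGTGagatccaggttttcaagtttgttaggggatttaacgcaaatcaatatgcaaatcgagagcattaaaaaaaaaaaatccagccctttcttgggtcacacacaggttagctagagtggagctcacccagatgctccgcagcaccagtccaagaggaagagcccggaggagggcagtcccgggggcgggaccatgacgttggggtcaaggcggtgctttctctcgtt
Aldoc, chr11:78322823-78323072, plus strand: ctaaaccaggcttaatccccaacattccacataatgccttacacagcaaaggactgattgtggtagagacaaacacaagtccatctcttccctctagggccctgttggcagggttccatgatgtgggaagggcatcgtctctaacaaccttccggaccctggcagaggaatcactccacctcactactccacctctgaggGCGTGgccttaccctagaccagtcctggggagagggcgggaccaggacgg
Ldha, chr7:46845554-46845803, plus strand: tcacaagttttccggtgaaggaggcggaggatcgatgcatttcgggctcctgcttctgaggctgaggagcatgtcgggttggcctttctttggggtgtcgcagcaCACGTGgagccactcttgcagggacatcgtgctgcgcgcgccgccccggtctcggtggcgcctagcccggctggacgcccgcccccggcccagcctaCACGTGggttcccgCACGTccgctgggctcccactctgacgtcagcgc

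Cores that share a CG, as in CACGTG, were counted once. Ankrd37 held 4 cores, with a pair side by side in CACGCGTG, Ldha 3, Ddit4 2, and Egln3 and Aldoc 1 each. The second listed start of Aldoc also had 1 core before it, and that of Ldha 1. The motif was thus present before the start of members that were higher, lower and near equal on the Hammer toe array. Its part in these differences was not tested. Among 28 measured members with a promoter window, 26 held at least 1 core and 17 held 2 or more in one of their windows. The list was drawn up in part from genes that HIF is known to induce, so this share says nothing about the arrays. Of the 9419 genes measured on the arrays with a window, 62.3% held at least 1 and 28.5% held 2 or more. The motif holds a CG, and the median number of CG per window was 17.5 for the measured members and 17 for all measured genes. A match is a run of letters and not a site shown to be bound.

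In the first steps of glycolysis, from glucose to triose phosphate, 7 of the 8 measured genes were lower in Hammer toe and 1 was higher. Hk1 and Hk2, the hexokinases that trap glucose in the cell as its phosphate, read 943 and 984 in wild type against 851 and 915 in Hammer toe, with log2 ratios of -0.15 and -0.11. A dimmer probe set of Hk1 was at -0.24. Phosphofructokinase, the committed step of the pathway, has liver, muscle and platelet type subunits, encoded by Pfkl, Pfkm and Pfkp, and all 3 were lower. Pfkl read 1259 and 1097, a log2 ratio of -0.20, and its other probe sets were at -0.19 and -0.18. Pfkm read 1176 and 1021, also -0.20, and Pfkp 229 and 185, or -0.31. The other probe sets of Pfkp were under the floor on both arrays. None of these passed the range that held 95% of genes of their intensity, and among genes above 1000, 15.2% lay at least as far from no difference as Pfkl.

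Aldolase splits the sugar, and its genes on the array went opposite ways. Aldoa, the aldolase of muscle and of most embryonic tissue, read 6853 in wild type against 6443 in Hammer toe, a log2 ratio of -0.09. Of its 5 probe sets 4 were lower and 1 higher, from -0.24 to 0.03. Aldoc, the aldolase best known from brain, read 83.5 in wild type, just above the floor, and 185 in Hammer toe. This was 2.21-fold higher, the largest difference of any member, and 0.29% of genes up to 200 lay at least as far from no difference. Dimmer genes of that class could not reach this ratio because of the floor, so the share understates how common it is. It rests on 1 probe set of the _a_at type, and without suffixed probe sets Aldoc was not measured. The second probe set of Aldoc, at 13.2 and 2.24, was under the floor on both arrays. Tpi1, which interconverts the triose phosphates, read 10240 and 9357, a log2 ratio of -0.13, with its other probe sets at -0.02 and -0.18.

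Among the enzymes, those from triose phosphate to pyruvate were nearest to no difference on the probe sets read for them. Pgk1, the first of the pathway's enzymes to make ATP, read 10202 in wild type against 10058 in Hammer toe, a log2 ratio of -0.02. Its probe sets did not match: a second was at -0.08, while another, of the _x_at type, read 7664 and 3831, a log2 ratio of -1.0. Probe sets of that type can bind related transcripts, and Pgk1 has processed copies elsewhere in the genome. Pgam1, a phosphoglycerate mutase, read 8146 and 8189, and Pkm, the pyruvate kinase of most embryonic tissues, read 7456 and 7519, each with a log2 ratio of 0.01. The sign for Pgam1 flipped when the arrays were centred on their medians. Eno2, the neuronal enolase, was under the floor at 25.9 and 26.7.

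Gapdh was read by 3 control probe sets, which lie along its transcript. They read 27685, 21943 and 21871 in wild type against 28548, 23153 and 22103 in Hammer toe, with log2 ratios of 0.04, 0.08 and 0.02. Counted from the brightest of them, Gapdh left 10 of 14 enzymes lower and a median of -0.09.

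The lactate dehydrogenases interconvert pyruvate and lactate, and both genes were slightly lower. Ldha, the subunit that HIF induces, read 12887 in wild type against 12032 in Hammer toe, a log2 ratio of -0.10. Ldhb read 4748 and 4639, a ratio of -0.03, on a probe set hardly brighter than the next. Its other probe sets were all lower by more, with log2 ratios of -0.16, -0.16 and -0.24.

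Without Aldoc, the other 12 enzymes ranged from -0.31 to 0.01. Their 10 lower values were each small, and the furthest was Pfkp, 1.24-fold lower. The summed intensity of the 13 enzymes was 65207 in wild type against 62489 in Hammer toe. Among the 9 enzymes whose brighter array read above 1000, 7 were lower, where 48.8% of all genes above 1000 were lower.

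**Figure D2:**
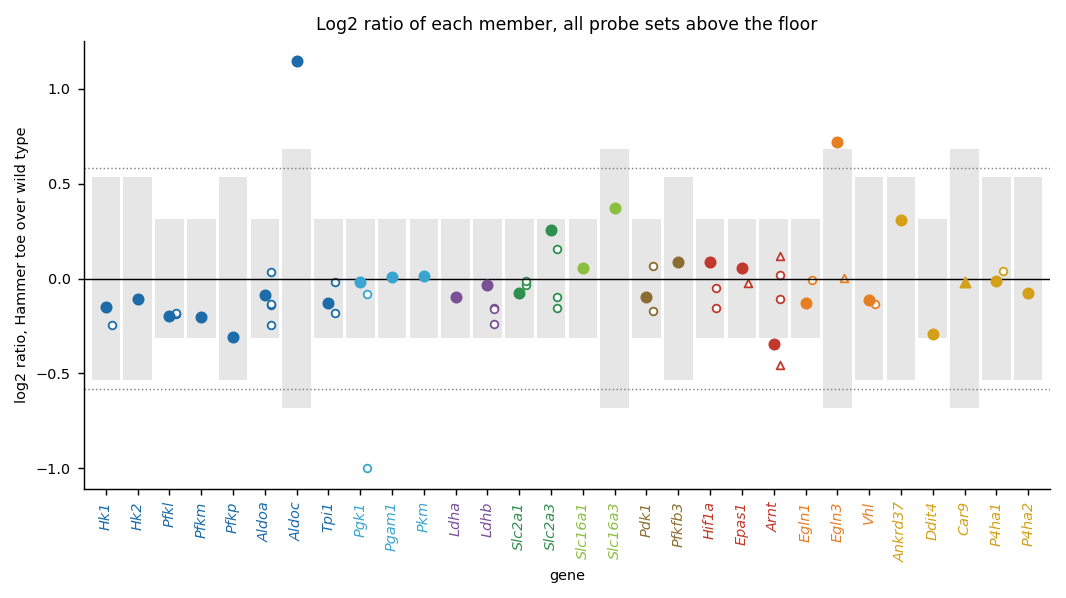
Log2 ratio, Hammer toe over wild type, of the 30 measured members (filled: the probe set read for the gene; open: its other probe sets above the floor on at least 1 array; triangles: bounds). Grey boxes span the range that held 95% of genes of that intensity and dotted lines mark 1.5-fold; Aldoc (1.15), Egln3 (0.72) and Arnt (-0.35) lie outside their boxes, and an open point of Pgk1 lies at -1.0.

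Carriers of glucose and lactate showed no common direction. Slc2a1, the widespread glucose transporter and a HIF target, read 3688 in wild type against 3496 in Hammer toe, and its 3 probe sets were at -0.08, -0.04 and -0.01. Slc2a3, a glucose transporter of high affinity, read 7523 and 9000, 1.20-fold higher, and 7.97% of genes above 1000 lay at least as far from no difference. Its next probe set was at 0.15, but the remaining dimmer ones were at -0.10 and -0.15. Slc16a1, a carrier of lactate with protons, read 4422 and 4589, a log2 ratio of 0.05. Slc16a3, the lactate exporter of glycolytic cells and a HIF target, was 1.29-fold higher, from 102 to 132, at an intensity where 27% of genes lay at least as far apart.

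Flux regulators lay within 1.1-fold on the probe sets read for them. Pdk1, the kinase that turns off pyruvate dehydrogenase and so keeps pyruvate from the mitochondria, read 1630 and 1526, with probe sets at -0.10, 0.07 and -0.17. Pfkfb3, which makes the activator of phosphofructokinase, read 261 and 278, a log2 ratio of 0.09.

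Among the HIF subunits, Arnt was furthest from no difference on the probe sets read for them. Hif1a, the widespread oxygen-regulated subunit, read 5626 in wild type against 5984 in Hammer toe, a log2 ratio of 0.09, with its other probe sets at -0.05 and -0.16. Epas1, the related subunit best known from vessels, read 1096 and 1138, a ratio of 0.05. Arnt, their shared partner, read 1008 and 793, 1.27-fold lower, and 3.73% of genes above 1000 lay at least as far from no difference. That share rests on a value just above the class edge of 1000. Its other probe sets were at -0.11 and 0.02, with bounds of -0.45 and 0.12 for those with 1 array under the floor. The protein of HIF subunits is controlled after translation, and the arrays measured RNA only.

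Oxygen sensing genes differed among themselves. Egln1, the main prolyl hydroxylase of the HIF alpha subunits, read 1552 and 1418, a log2 ratio of -0.13, and -0.01 on its second probe set. Vhl, the recognition subunit of the ligase that marks them for destruction, read 985 and 911, with its probe sets at -0.11 and -0.13. Egln3, a prolyl hydroxylase that HIF itself induces, read 97.2 in wild type against 160 in Hammer toe, 1.64-fold higher. Of genes up to 200, 4.11% lay at least as far from no difference, a share that the floor lowers as for Aldoc. Its second probe set read 10.9 for wild type and 78.1, at the floor itself, for Hammer toe, so it gave no size. With the mean over both probe sets Egln3 stood at 0.36, and with a pseudocount in place of the floor at 0.44, both under 1.5-fold.

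Of the 6 hypoxia targets, 5 were measured and 0 reached 1.5-fold. Ankrd37, an ankyrin repeat gene strongly induced by HIF in many cells, read 302 in wild type against 373 in Hammer toe, 1.24-fold higher. Of genes between 200 and 1000, 18.6% lay at least as far from no difference. Ddit4, an inhibitor of growth signalling through mTOR that is induced by low oxygen and by other stresses, read 4053 and 3315, 1.22-fold lower, and 5.86% of genes above 1000 lay at least as far from no difference. P4ha1 and P4ha2, the prolyl hydroxylase subunits that stabilise collagen, read 902 and 543 in wild type against 892 and 516 in Hammer toe, with log2 ratios of -0.01 and -0.07. Car9, a carbonic anhydrase that is nearly silent in many tissues without hypoxia, read 79.2 in wild type, just above the floor, and 53.9 in Hammer toe, below it, so its ratio of -0.02 is a bound. Adm, which encodes the peptide adrenomedullin, was under the floor on both probe sets, and the brighter of them read 31.8 and 32.4.

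Set against each other, the hypoxia targets' median log2 ratio was 0.08 above that of the enzymes. The SD of 0.21 between probe sets of a gene describes single probe sets and gives no spread for a difference of medians. With 1 array per genotype that difference could not be tested. With the mean in place of the median the order reversed, to -0.0050, since the mean of the enzymes takes in Aldoc; without Aldoc that mean was -0.11. With 7 further members that HIF is known to induce added to the targets (Egln1, Egln3, Pdk1, Slc2a1, Slc2a3, Slc16a3 and Pfkfb3), the targets' median was again -0.02. Several of the enzymes are HIF targets too, so the groups are not separate in kind.

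**Figure D3:**
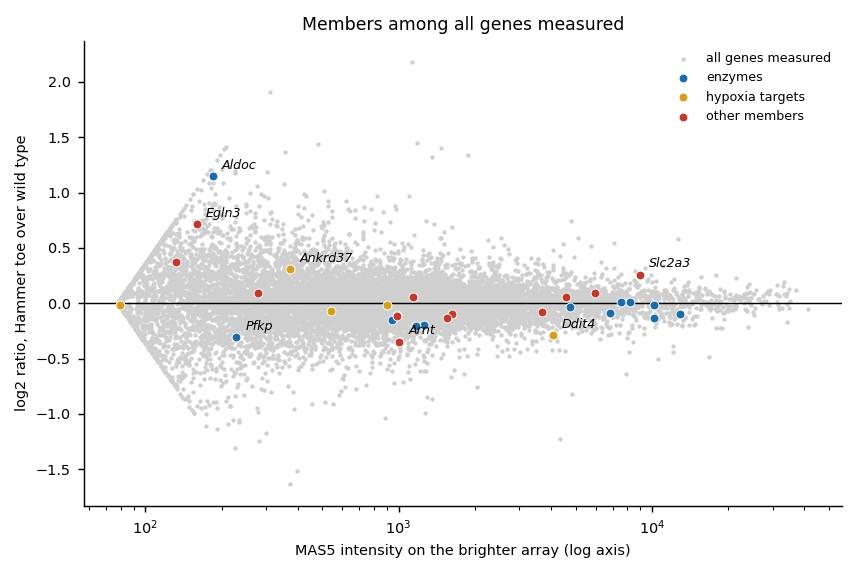
Log2 ratio, Hammer toe over wild type, against the MAS5 intensity of the brighter array (log axis) for all 11621 genes measured (grey), with the 13 enzymes, 5 hypoxia targets and 12 other members coloured. The spread narrows as intensity rises; Aldoc and Egln3 lie at the dim end, where a wide spread is common, and the bright enzymes lie just below or on the line of no difference.

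Further genes of these pathways, which were not members, gave a like picture. Of 30 measured further hypoxia genes, 12 were higher and 18 lower, with a median log2 ratio of -0.05. Only Ak4, a mitochondrial adenylate kinase, reached 1.5-fold there, 1.52-fold lower, from 401 to 264. Vegfa, the vessel growth factor, read 364 and 335, a ratio of -0.12. Bnip3, a mitophagy receptor, read 2291 and 1911, a ratio of -0.26. Among those higher, Edn1, dim at 89.2 in wild type, stood at 0.55 and Arnt2 at 0.35. Of 21 further glycolysis genes 8 were higher and 13 lower, with a median of -0.04 and none at 1.5-fold. The furthest from 0 among them were Pgam2, the muscle phosphoglycerate mutase, at -0.55, and Hk3, a hexokinase of white blood cells, with 1 array under the floor and a bound of 0.49.

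In gluconeogenesis and glycogen genes, 5 were higher and 5 lower, with a median of 0.04. Pygl, a glycogen phosphorylase, and G6pc3, a glucose phosphatase, were furthest from 0, at 0.46 and 0.25. The pentose phosphate list had 5 higher and 1 lower, and a median of 0.06. Tkt, the transketolase, was its lower member at -0.23, from 18869 to 16137, and Pgls, the lactonase, stood at 0.11. Pyruvate dehydrogenase and citric acid cycle genes, which burn pyruvate in mitochondria, had a median of -0.02, with 9 higher and 13 lower. Pdhx, which holds that complex together, and Ogdh, a subunit of oxoglutarate dehydrogenase, were furthest from 0, at -0.31 and -0.28. Over all 89 measured genes of these lists, 1 was lower and 0 higher by 1.5-fold.

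Several lists of cell type markers lay further from 0 than the enzymes or the hypoxia targets. All 10 listed markers of interdigital mesenchyme were measured, among them Prrx1, Hoxd13 and Aldh1a2, with a median log2 ratio of -0.12. Tbx3 and Hoxa13, transcription factors of the autopod, were furthest from 0, at 0.80 and -0.41. Cartilage, which has few vessels and relies on glycolysis, was represented by 12 markers, of which 11 were lower, with a median of -0.60. Their summed intensity was 16529 in wild type against 10756 in Hammer toe, and Col9a3 and Sox5 were furthest from 0, at -0.99 and -0.96. Of 8 erythroid markers 7 were lower, with a median of -0.42, and Hbb-bh1 and Slc4a1 at -0.82 and -0.54. Their summed intensity was 59847 and 51814, the largest part from Hbb-y, which read 34790 and 33861.

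Of 10 macrophage markers 9 were higher, with their median at 0.40, summed intensities of 3187 and 4108, and Aif1 and Mrc1 at 0.79 and 0.59. Of 10 ectoderm markers 9 were higher, with their median at 0.43, sums of 10708 and 13716, and Epcam and Esrp1 at 0.57 and 0.55. Of 8 muscle markers 6 were higher, with their median at 0.41, sums of 1352 and 1977, and Myh3 and Actc1 at 1.09 and 0.97. Of 10 markers of endothelial cells, which line vessels, 4 were higher and 6 lower, with a median of -0.02 and sums of 5121 and 5363. Esam and Tie1, both higher, were furthest from 0, at 0.55 and 0.33. Pecam1 was lower, at -0.28. Of the markers with a probe set none read 0, but neither array showed Myf5 or Ttn above the floor, and Matn1 and Des were above it in wild type only. These markers moved beside the small differences of most enzymes and the larger ones of Aldoc and Egln3. The part of the markers in those differences was not tested.

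**Figure D4:**
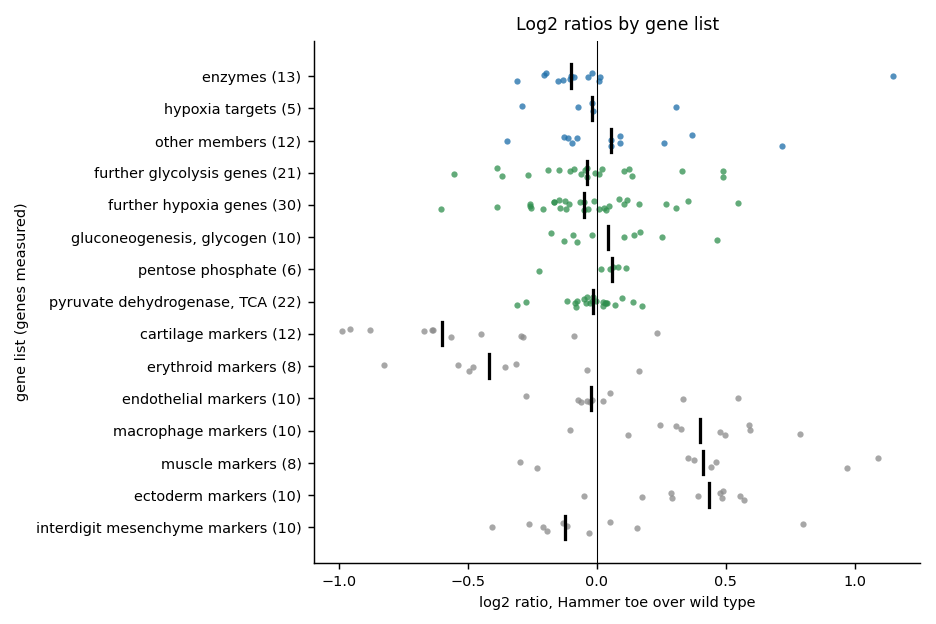
Log2 ratio, Hammer toe over wild type, of every measured gene by list, with the number of genes in brackets and the median as a black bar; members are blue, further pathway genes green and cell type markers grey. The medians of the metabolic lists lie between -0.10 and 0.06, while cartilage (-0.60) and erythroid markers (-0.42) lie lower, and macrophage (0.40), muscle (0.41) and ectoderm markers (0.43) higher.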

How the data were processed

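Intensities were deposited as 1 table. The submitters' processing notes name MAS5 and Affymetrix Expression Console, without versions, as what the authors used. Both arrays had a 2% trimmed mean of 500.003, so a shift of most transcripts in one direction cannot be seen. Of 45101 probe sets 64 were controls. GEO's annotation, with symbols updated through RefSeq's gene table of GRCm38.p6, gave 1 gene to 34945 of the rest, several to 932 and none to 9160.

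Each gene took the probe set whose mean of both arrays was highest. Intensities below the floor were set to the floor, and log2 ratios were computed in Python 3.11.15 with pandas 2.3.3. With 1 array per genotype no p-value was computed; the number of arrays limits the precision. Genes were called by size, at 1.5-fold. Every member was named; of other lists, genes at 1.5-fold or more (at most 6), otherwise the 2 furthest from 0, and for marker lists the 2 furthest from 0. Vegfa, Bnip3, Edn1, Arnt2, Pecam1 and Hbb-y were added as examples after their values were seen. The members and lists were chosen with earlier results of these data known. Alternatives covered the scaling (median centring, quantile, lowess with span 0.3), the floor (none, the 25th or 75th percentile, or a pseudocount), the probe set of a gene, the size of change, a wider set of targets, and means for medians.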

Additional observations from a re-analysis of the deposited data

How the results depend on the processing

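No paired analysis was possible because each genotype had 1 array. Median centring, quantile normalization and lowess kept 2 members higher and 0 lower by 1.5-fold and 10 or 11 enzymes lower, with the enzymes' median between -0.11 and -0.10. The count of members higher by 1.5-fold was 0 with the floor at the 75th percentile and, in an alternative added after the data were seen, 0 among genes whose brighter array was above 200, since both filters remove or floor Aldoc and Egln3. It was 1 with a pseudocount, with the mean over probe sets, without suffixed probe sets, with the probe set nearest to 0 and at a size of 2-fold; at a size smaller than 1.5-fold, as planned, 1 member, Arnt, was lower. Without suffixed probe sets only 6 enzymes remained, 5 of them lower. With the probe set nearest to 0 the enzymes' median was -0.033 and the targets lay 0.014 above it. With means the enzymes stood at -0.013 and the targets minus enzymes at -0.0050. Of 286 single gene values under 10 alternatives, 274 moved by less than the SD between probe sets of a gene and 12 moved further. Many of the 274 could not move, since a change of floor leaves bright genes as they were and a lone probe set allows no other choice. Genes lost under an alternative were not counted there. The SD between probe sets, 0.21, is larger than the ratio of many members, so a small move could still turn a sign. Aldoc and Egln3, the members at 1.5-fold, kept their sign where they were measured. Neither was measured with the floor at the 75th percentile. Aldoc had 1 probe set above the floor, so the mean over probe sets and the probe set nearest to 0 could not change it. With the probe set nearest to 0 Egln3 stood at 0.00075, a value set by the floor. Aldoa, Arnt, Epas1, Hif1a, P4ha1, Pdk1, Pgam1 and Slc2a3 turned sign under at least 1 alternative. Depth is not defined for arrays; Aldoc, Egln3, Slc16a3 and Car9 rest on signals near the floor.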
